A study of Mus musculus with 9 samples.

Results

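Prostaglandins and leukotrienes are both made from arachidonic acid, and 10 genes of their synthesis and breakdown were followed here in neutrophils of tumor-bearing mice. They were taken by name from a table of 46517 genes, each name matched 1 row, and all 10 reached 5 reads in at least 1 library. The set holds the phospholipase gene Pla2g4a, the cyclooxygenase genes Ptgs1 and Ptgs2, the prostaglandin E synthase gene Ptges, the prostaglandin-degrading gene Hpgd, the 5-lipoxygenase gene Alox5 with its partner Alox5ap, the leukotriene genes Lta4h and Ltc4s, and the 12/15-lipoxygenase gene Alox15.

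Neutrophils came from the pancreatic tumor, the blood and the bone marrow of C57BL/6 mice, called orthotopic transplanted (OT) mice. They were taken on day 27 after pancreatic tumor cells were placed in the pancreas. The study describes the 3 compartments as taken from the same mouse, while the labels give only replicate numbers. The injected line came from a genetically engineered mouse model of pancreatic cancer with a pancreatic Cre driver, and it also expressed luciferase. RNA of 9 libraries was sequenced, 3 per compartment, each from a pool of mice in an independent experiment. All 3 compartments came from mice with tumors, and no tumor-free mice are analysed here, so bone marrow and blood are the reference levels and are not those of healthy animals. The gate was live CD45+, Ly6G+ and Ly6C+ cells negative for CD3, B220 and NK1.1, and the labels call the bone marrow cells high in Ly6G and the others Ly6G+. Mouse age is not given in the sample labels.

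In this pathway a cytosolic phospholipase releases arachidonic acid from membranes, and the acid then enters one of several branches. Cyclooxygenases turn it into prostaglandin H2, which terminal synthases convert to prostaglandin E2, thromboxane and other prostanoids. 5-lipoxygenase, helped by the membrane protein FLAP, makes leukotriene A4, from which LTA4 hydrolase forms leukotriene B4, a strong attractant of neutrophils, and LTC4 synthase forms the cysteinyl leukotrienes. Neutrophils are a classical source of leukotriene B4, and COX-2, the product of Ptgs2, is the cyclooxygenase that cells induce on stimulation.

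The promoters of the 4 genes on which the results turn most are shown because the cyclooxygenase pair parted in tumor while Alox5 and Lta4h dropped at different steps. Each sequence runs 5′ to 3′ on the gene's own strand from 250 bases before the RefSeq start through the first 30 transcribed bases, on GRCm38.p6, and 8 of the 10 genes had such a window. Capitals mark matches, on either strand, to the C/EBP letters TTGCNNAA, the cyclic AMP response half-site TGACGT, the E-box CACGTG or the GC box GGGCGG.
Ptgs2, chr1:150099781-150100060, plus strand: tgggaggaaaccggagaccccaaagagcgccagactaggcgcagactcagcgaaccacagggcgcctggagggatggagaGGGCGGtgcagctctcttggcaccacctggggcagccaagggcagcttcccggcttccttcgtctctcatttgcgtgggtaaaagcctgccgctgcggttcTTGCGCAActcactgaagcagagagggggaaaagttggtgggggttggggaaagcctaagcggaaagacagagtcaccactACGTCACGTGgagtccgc
Ptgs1, chr2:36230176-36230455, plus strand: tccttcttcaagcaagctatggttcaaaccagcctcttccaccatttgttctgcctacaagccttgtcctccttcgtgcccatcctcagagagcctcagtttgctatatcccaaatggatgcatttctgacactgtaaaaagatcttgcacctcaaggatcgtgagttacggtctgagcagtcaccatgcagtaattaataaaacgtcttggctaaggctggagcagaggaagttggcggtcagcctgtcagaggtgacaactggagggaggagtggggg
Alox5, chr6:116461149-116461428, minus strand: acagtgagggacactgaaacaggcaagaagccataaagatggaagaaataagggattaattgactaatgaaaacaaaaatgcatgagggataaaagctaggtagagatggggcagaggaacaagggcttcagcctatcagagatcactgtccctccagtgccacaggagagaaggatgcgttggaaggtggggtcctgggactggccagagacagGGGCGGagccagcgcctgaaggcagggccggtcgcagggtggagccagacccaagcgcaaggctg
Lta4h, chr10:93453146-93453425, plus strand: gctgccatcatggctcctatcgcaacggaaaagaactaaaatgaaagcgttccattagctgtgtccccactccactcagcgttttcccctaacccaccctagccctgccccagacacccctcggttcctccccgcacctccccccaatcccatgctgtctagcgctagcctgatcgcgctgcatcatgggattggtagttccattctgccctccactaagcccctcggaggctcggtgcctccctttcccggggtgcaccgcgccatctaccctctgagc

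The Ptgs2 window held 1 match to each of the 4 letter strings, the C/EBP letters starting at position -69 and the half-site and the E-box starting at positions 13 and 17, where they overlap by 2 bases. Alox5 held 1 GC box, at position -35, and the windows of Ptgs1 and Lta4h held none of the strings. Over all 32851 mouse promoter windows of the same length, 10.8% held the C/EBP letters, 7.51% the half-site, 7.15% the E-box and 35.7% the GC box. A match describes letters in the window and not a site in use.

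Depth was 7108871 to 7949367 reads per library in bone marrow, 4580807 to 6830374 in blood, against 5446499 to 6969557 in tumor. Libraries of 1 compartment correlated at 0.889 to 0.954 over the genes tested, and libraries of different compartments at 0.706 to 0.892. All 10 mature neutrophil markers were detected in every library, but their summed level was 48912 to 50016 RPM (reads scaled to the library total) in bone marrow, 40003 to 41493 in blood, with 15378 to 17655 in tumor. Ly6g, the gate's own marker, had 4527 to 5241 reads per bone marrow library, 580 to 654 in blood and 200 to 456 in tumor. Markers of cells the gate should remove were present in tumor libraries, where 10 of 10 tumor epithelium, 8 of 8 fibroblast and 8 of 8 acinar genes were higher than in either other compartment (limma adjusted p below 0.05). In these bulk samples, fewer cells of a type and less RNA per cell cannot be told apart.

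Levels below are the deposited log2 FPKM values, reads scaled to gene length and library size on a log2 scale. Their length equalled the genomic span of most genes, so they are compared between libraries and not between genes. Changes were tested with limma over the 17714 genes with at least 5 reads in 1 or more libraries, and a gene was called at an adjusted p below 0.05. Against blood, the tumor was higher in 5 of the 10 genes and lower in 3, where 33.8% of all tested genes were called higher and 21.1% lower. Against bone marrow, 2 were higher in tumor and 4 lower, where 26.9% of all genes were higher and 19.5% lower. Between blood and bone marrow, 0 were higher in blood by limma and 5 were lower, where 13.7% and 18.1% of all genes were called. At an unadjusted limma p below 0.05, 1 gene (Ltc4s) was higher in blood, where 7277 of all 17714 genes passed in either direction. Limma-voom on reads, at an adjusted p below 0.05, also called 0 higher. With library medians set equal, calls over all genes against blood were 4214 higher and 5957 lower in place of 5996 and 3735, against bone marrow 3577 and 5131 in place of 4770 and 3459, and for blood against bone marrow 3209 and 2339 in place of 2429 and 3206. Plain library totals gave 7379 and 2608 against blood and 6427 and 2259 against bone marrow, and quantile normalization 4246 and 5444, and 3669 and 4950. The median log2 change of the 10 genes was 0.55 against blood, -0.54 against bone marrow and -0.32 for blood against bone marrow, beside medians of 0.50, 0.29 and 0.00 over all genes tested. Replacing changes of Alox15 and Ltc4s by count ratios or bounds could not move these 3 medians, since neither gene lies near the middle.

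The 3 comparisons share libraries, so they are not independent of each other. The genes did not move as a group. Ptgs2 was higher in tumor than in blood and bone marrow, and Alox5, Alox5ap and Alox15 were lower than in both. Ptgs1, Ptges and Pla2g4a were higher in tumor than in blood, with no call against bone marrow, Lta4h was higher than in blood and lower than in bone marrow, and Ltc4s was higher than in bone marrow. The plot of the 10 genes by library shows this split.

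**Figure D1:**
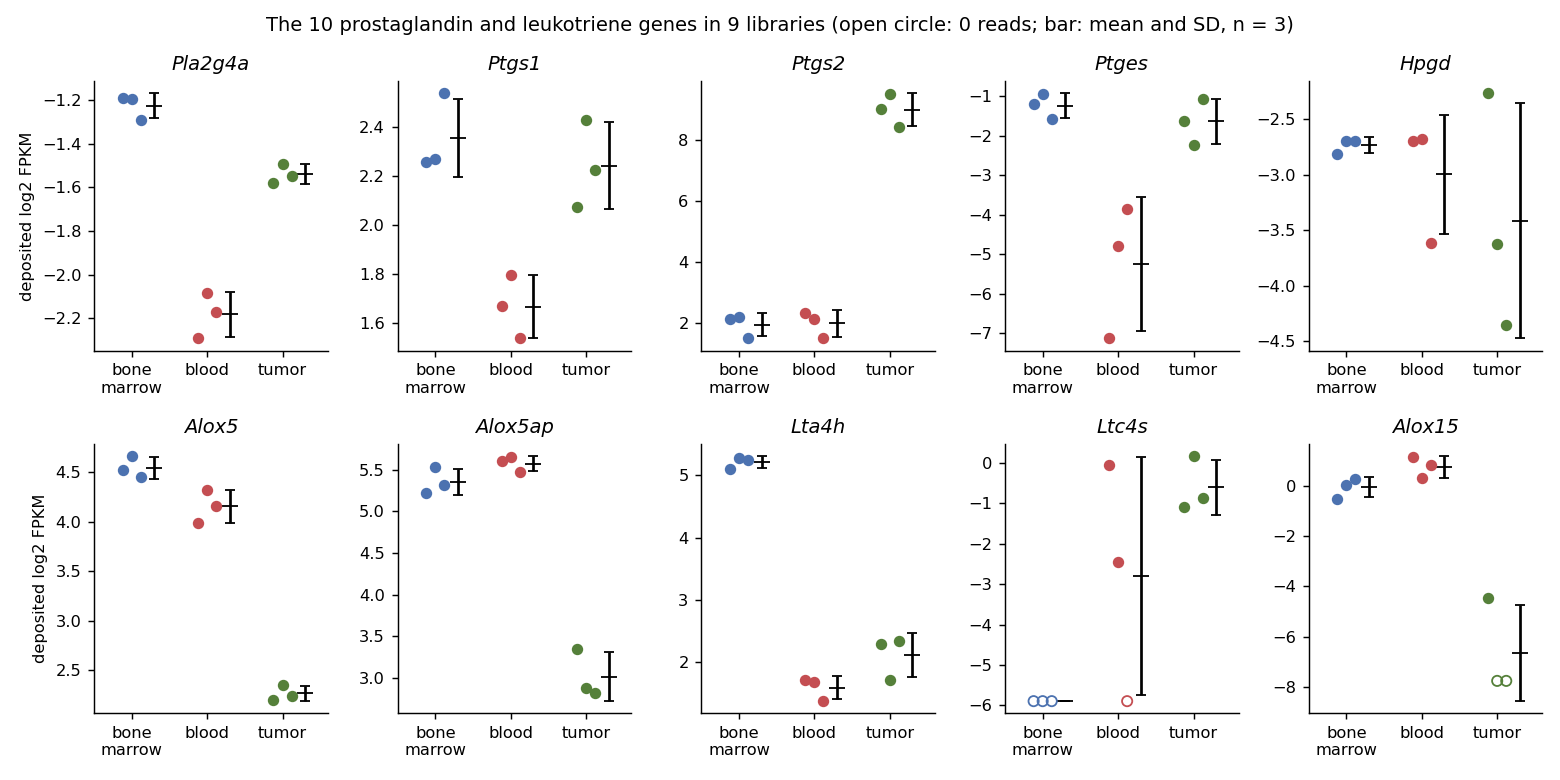
Deposited log2 FPKM (vertical axis, 1 scale per gene) of the 10 genes in the 3 libraries each of bone marrow, blood and tumor, with open circles for libraries with 0 reads and bars for the mean and SD (n = 3). Tumor libraries of Ptgs2 sit between 8.43 and 9.51, all above the 1.49 to 2.34 of the other 6, while those of Alox5, Alox5ap and Alox15 sit below all others.

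Ptgs2 (ENSMUSG00000032487.8, chromosome 1, 150100031 to 150108227, plus strand), which encodes the inducible cyclooxygenase COX-2, had the largest rise of the 10 genes. Its log2 FPKM was 2.13, 2.19 and 1.5 in bone marrow, 2.34, 2.11 and 1.49 in blood and 9.0, 9.51 and 8.43 in tumor. The lowest tumor library lay more than 6 log2 units above the highest library of the other compartments, which overlapped each other. In reads this was 239, 212 and 154 in bone marrow, 164, 198 and 108 in blood and 26134, 45088 and 22435 in tumor. The change was 7.0 ± 0.30 (SE, n = 3 against 3) on the log2 scale against blood, or 128-fold, with a limma adjusted p of 9.85e-08. Against bone marrow it was 7.04 ± 0.30, or 132-fold, with a limma adjusted p of 8.36e-08. Blood and bone marrow differed by 0.04, with a 95% confidence interval of -0.62 to 0.70 (limma adjusted p = 0.988). Over all alternatives of processing tried, the tumor change stayed between 6.25 and 7.45 against blood and between 6.56 and 7.56 against bone marrow.

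Ptgs2 also changed its place among all genes. Ranked by reads, it stood 3928th, 4018th and 5092nd in the bone marrow libraries and 3431st, 3815th and 4676th in blood. In the tumor libraries it stood 12th, 6th and 22nd. It took 0.480%, 0.647% and 0.345% of all reads in the 3 tumor libraries.

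Tumor tissue cells can also express Ptgs2, and their markers moved with it between compartments. The tumor epithelium list summed to 8.02 to 11.7 RPM in bone marrow, 21.6 to 148 in blood, against 2894 to 6213 in tumor. Among the tumor libraries the order of the markers was not that of Ptgs2. Ptgs2 was 4798, 6469 and 3449 RPM in tumor libraries 1, 2 and 3, the epithelial list 3831, 2894 and 6213 and the acinar list 1141, 785 and 3341. The epithelial and acinar lists ran in the reverse order of Ptgs2, while the fibroblast list, at 1124, 1180 and 1385 RPM, did not. An order of 3 libraries cannot show from which cells the reads came. In blood replicate 2, where the epithelial list reached 148 RPM, against 21.6 and 24.0 in the other blood libraries, Ptgs2 had 198 reads, 29.0 RPM, between the other blood libraries at 19.4 and 35.8. How much of the tumor value came from cells other than neutrophils was not tested. The study's methods describe enzymatic digestion for tumors and red cell lysis for blood. Handling thus differed with compartment and cannot be told apart from it. Its part in the values of Ptgs2 and the other genes was not tested.

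**Figure D2:**
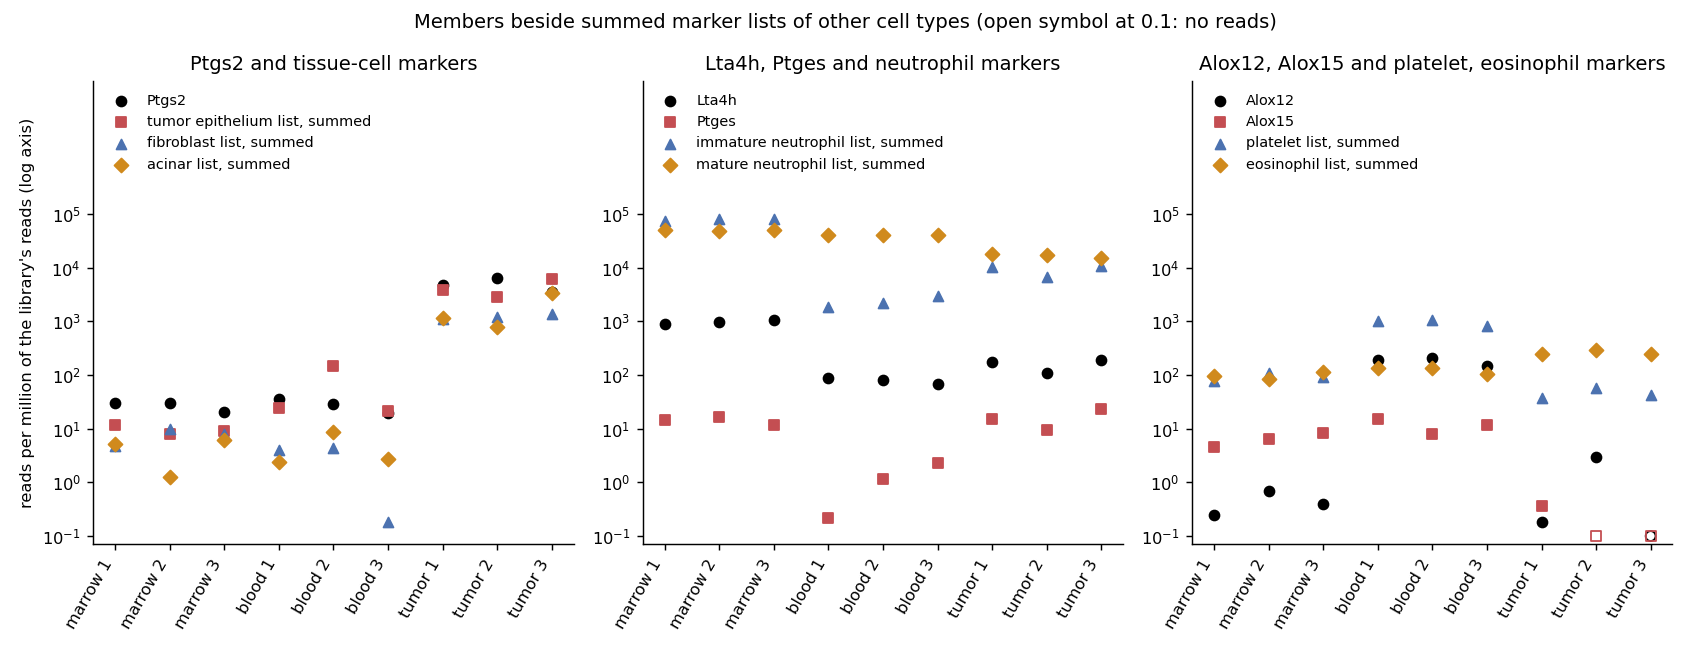
RPM (log axis) for members or a related gene (Ptgs2, then Lta4h and Ptges, then Alox15 and Alox12) beside the summed marker lists named in the key, in all 9 libraries, with open symbols at 0.1 for no reads. Ptgs2 and the epithelial, fibroblast and acinar lists are all highest in the 3 tumor libraries, Lta4h and the immature neutrophil list in the 3 bone marrow libraries, and Alox12 and the platelet list in the 3 blood libraries.

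Ptgs1 (ENSMUSG00000047250.12, chromosome 2, 36230426 to 36252272, plus strand) encodes COX-1, the constitutive cyclooxygenase, and had small changes. Of its 3884 exon bases, 148 are shared with Gm43621 on the opposite strand. Its log2 FPKM was 2.26, 2.27 and 2.54 in bone marrow, 1.67, 1.79 and 1.54 in blood and 2.07, 2.43 and 2.22 in tumor. All blood libraries lay below all others, and tumor and bone marrow overlapped. Tumor exceeded blood by 0.58 ± 0.14 (SE), or 1.49-fold (limma adjusted p = 0.00569), close to the 0.50 median change of all genes in this comparison. Blood lay below bone marrow by 0.69 on the log2 scale, a change of -0.69 ± 0.14 (limma adjusted p = 0.00395). The tumor to bone marrow difference was -0.11, with a confidence interval of -0.43 to 0.20 (limma adjusted p = 0.536). With library medians set equal, the tumor to blood change turned to -0.18 (limma adjusted p = 0.320) and the tumor to bone marrow change was called lower at -0.59 (limma adjusted p = 0.00546).

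The ratio of the 2 cyclooxygenase genes within a library needs no scaling between libraries. There were 0.342, 0.356 and 0.183 Ptgs2 reads per Ptgs1 read in bone marrow, 0.599, 0.469 and 0.365 in blood and 45.8, 50.7 and 27.6 in tumor. The balance between the inducible and the constitutive gene was thus inverted in all 3 tumor libraries, and the bone marrow and blood ranges did not overlap either. This ratio was not tested.

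Pla2g4a (ENSMUSG00000056220.13, chromosome 1, 149829618 to 149961290, minus strand) encodes cytosolic phospholipase A2 alpha, which frees arachidonic acid, and lies 138740 bases from Ptgs2. Its log2 FPKM was -1.19, -1.20 and -1.29 in bone marrow, -2.29, -2.09 and -2.17 in blood and -1.58, -1.49 and -1.55 in tumor. The 3 compartments did not overlap, with bone marrow highest and blood lowest. Tumor exceeded blood by 0.64 ± 0.13 (SE), or 1.56-fold (limma adjusted p = 0.00208), again near the 0.50 median of all genes, and with library medians set equal it turned to -0.11 (limma adjusted p = 0.544). Blood was 1.94-fold below bone marrow (limma adjusted p = 0.000358). The difference of -0.31 between tumor and bone marrow did not pass (limma adjusted p = 0.0776), although the ranges were apart, and with library medians set equal it was called at -0.80 (limma adjusted p = 0.000841).

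Ptges (ENSMUSG00000050737.13, chromosome 2, 30889471 to 30929863, minus strand) encodes the inducible microsomal prostaglandin E synthase that works downstream of COX-2. It had 117, 118 and 90 reads in bone marrow, 1, 8 and 13 in blood and 81, 65 and 152 in tumor. Its log2 FPKM was -1.20, -0.95 and -1.57 in bone marrow, -7.13, -4.78 and -3.85 in blood and -1.63, -2.23 and -1.08 in tumor. Blood was far below both others, which overlapped. The tumor to blood change was 3.61 ± 0.70 (SE), or 12.2-fold (limma adjusted p = 0.00126), and blood lay 16.1-fold below bone marrow (limma adjusted p = 0.00136). Tumor against bone marrow was -0.40, with a confidence interval of -1.94 to 1.14 (limma adjusted p = 0.663), which lies below the interval of 6.38 to 7.70 for Ptgs2. Without blood replicate 1, which had 1 read, the tumor to blood change was 2.67 and the blood to bone marrow change -3.07, and without blood replicate 3 they were 4.31 and -4.71. Quantile normalization gave 2.63 for tumor against blood. Within tumor, Ptges was lowest in library 2 and highest in library 3, the reverse of Ptgs2. The epithelial, acinar and immature neutrophil lists had the same order as Ptges. The immature list stood at 10516, 6738 and 10633 RPM in tumor libraries 1, 2 and 3, and it was also lowest in blood. The part of any of these cells in the Ptges values was not tested.

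Hpgd (ENSMUSG00000031613.8, chromosome 8, 56294585 to 56321043, plus strand) encodes 15-hydroxyprostaglandin dehydrogenase, which inactivates prostaglandin E2, and was not called in any comparison. It had 25, 23 and 27 reads in bone marrow, 16, 23 and 10 in blood and 34, 16 and 10 in tumor. All 3 compartments overlapped, and the tumor libraries spread from 10 to 34 reads. At this depth, changes in tumor of -1.66 to 0.82 on the log2 scale against blood and of -1.92 to 0.56 against bone marrow lay within the 95% confidence intervals (limma adjusted p = 0.545 and 0.341). After quantile normalization Hpgd was called lower in tumor than in both others (-1.86 and -1.81, limma adjusted p = 0.0241 and 0.0309), and without tumor replicate 3 the difference from blood was 0.0505. Per Hpgd read there were 3.29 to 5.04 Ptges reads in bone marrow, 0.0909 to 1.29 in blood, with 2.36 to 14.5 in tumor.

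The 5-lipoxygenase pair went the other way. Alox5 (ENSMUSG00000025701.11, chromosome 6, 116410077 to 116461178, minus strand), the enzyme that starts leukotriene synthesis, had a log2 FPKM of 4.52, 4.66 and 4.44 in bone marrow, 3.98, 4.32 and 4.16 in blood and 2.21, 2.36 and 2.24 in tumor. Every tumor library was below every other library by more than 1 log2 unit. In reads these were 7848, 7308 and 7386 in bone marrow, 3196, 5695 and 4280 in blood and 1464, 1981 and 1923 in tumor. Alox5 was 3.69-fold lower in tumor than in blood (log2 change -1.88 ± 0.12, SE, limma adjusted p = 6.41e-07) and 4.83-fold lower than in bone marrow (-2.27 ± 0.12, limma adjusted p = 1.98e-07). Other scalings moved the change against blood to between -2.64, with library medians set equal, and -1.04, after quantile normalization. The smaller step of -0.39 from bone marrow to blood had a limma adjusted p of 0.0267, but it lost its call in 8 of 24 alternatives, with limma adjusted p up to 0.561. These include the fits without bone marrow replicate 1 or 2 and without blood replicate 1 or 3 (limma adjusted p = 0.0671, 0.0978, 0.102 and 0.0665).

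Alox5ap (ENSMUSG00000060063.8, chromosome 5, 149264767 to 149288153, plus strand) encodes FLAP, the membrane protein that presents arachidonic acid to 5-lipoxygenase. Its log2 FPKM was 5.22, 5.53 and 5.32 in bone marrow, 5.60, 5.65 and 5.48 in blood and 3.35, 2.88 and 2.82 in tumor. Tumor libraries again lay below all others, and bone marrow and blood overlapped. The tumor level was 5.90-fold below blood (-2.56 ± 0.15, SE, limma adjusted p = 4.64e-07) and 5.06-fold below bone marrow (-2.34 ± 0.15, limma adjusted p = 8.41e-07). With the same other scalings the change against blood was -3.31 and -1.77. Of its 1420 exon bases, 189 are shared with the antisense gene Gm19719, and because the strand setting of the counting is not given in the sources used here, reads of the pair cannot be told apart there. The summed mature neutrophil markers were also lowest in tumor, at 15378 to 17655 RPM against 40003 to 41493 in blood, with 10 of 10 lower than in blood, and the part this has in the Alox5 and Alox5ap values was not tested.

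Lta4h (ENSMUSG00000015889.7, chromosome 10, 93453411 to 93484875, plus strand) encodes LTA4 hydrolase, which makes leukotriene B4. Its largest change was the fall from bone marrow to blood, a step at which Ptges fell further. Its log2 FPKM was 5.10, 5.28 and 5.26 in bone marrow, 1.71, 1.68 and 1.37 in blood and 2.29, 1.70 and 2.33 in tumor. Bone marrow lay far above the other compartments, and tumor replicate 2 fell within the range of blood. In reads these were 7219, 6947 and 7994 in bone marrow, 407, 562 and 381 in blood and 953, 775 and 1261 in tumor. Blood was 12.4-fold below bone marrow (-3.63 ± 0.17, SE, limma adjusted p = 3.76e-07) and tumor was 8.61-fold below it (-3.11 ± 0.17, limma adjusted p = 3.35e-07).

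Tumor exceeded blood in Lta4h by 0.52 ± 0.17 (limma adjusted p = 0.0249), a call that was lost in 7 of 24 alternatives and reversed in sign in 1, at -0.23 with library medians set equal. Without blood replicate 3, tumor replicate 1 or tumor replicate 3 it was 0.41, 0.43 and 0.41 (limma adjusted p = 0.0959, 0.0941 and 0.0932). The change was close to the 0.50 median of all genes. The immature neutrophil list, granule genes of marrow precursors, stood at 73699 to 81847 RPM in bone marrow, 1884 to 2953 in blood, against 6738 to 10633 in tumor, with 9 of 9 lower in blood and in tumor than in bone marrow. In tumor the list was lowest in replicate 2, the library with the least Lta4h, and so were the epithelial and acinar lists. How far the share of immature or other cells sets the Lta4h value was not tested.

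Ltc4s (ENSMUSG00000020377.13, chromosome 11, 50236461 to 50238616, minus strand) encodes LTC4 synthase, which opens the cysteinyl leukotriene branch, and was close to the limit of detection. It had 0 reads in all 3 bone marrow libraries, 8, 2 and 0 reads in blood and 6, 18 and 9 in tumor. Tumor was called higher than bone marrow (limma adjusted p = 0.00634), and with a floor of 3 reads over the bone marrow libraries it was at least 9.62-fold higher. The call was lost with log2(FPKM + 1) and after quantile normalization (limma adjusted p = 0.0695). Tumor and blood overlapped, and their ratio of 2.16 had a counting interval of 1.04 to 4.92 (exact Clopper-Pearson, 95%), which covers counting error only, while the test across libraries did not pass (limma adjusted p = 0.174). Single libraries decided the blood comparisons. Without blood replicate 1, which had 8 reads, tumor was called higher than blood (limma adjusted p = 0.0276), and without blood replicate 3, which had 0, blood was called higher than bone marrow (limma adjusted p = 0.00814). Of its 1014 exon bases, 268 are shared with the antisense gene Gm26542. Among other cells that make this enzyme, basophil and mast cell markers stood at 78.2 to 128 RPM in bone marrow and 0 to 3.54 in tumor. The summed eosinophil list was highest in tumor, at 244 to 298 RPM against 84.8 to 116 in bone marrow. That sum was carried by Siglecf and Il5ra, and of its 8 genes 2 were higher and 4 lower in tumor than in bone marrow. The part of such cells in the Ltc4s reads was not tested.

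Alox15 (ENSMUSG00000018924.6, chromosome 11, 70344152 to 70352031, minus strand) encodes the mouse leukocyte-type 12/15-lipoxygenase, whose products include precursors of lipoxins. It had 37, 46 and 64 reads in bone marrow, 69, 54 and 66 in blood and 2, 0 and 0 in tumor. Tumor libraries were all below the others, and in log2 FPKM the blood libraries lay above those of bone marrow, by a small margin between the nearest pair at 0.301 and 0.296. That difference of 0.82 did not pass the test (limma adjusted p = 0.529). The fall in tumor was called against blood (limma adjusted p = 3.60e-05) and against bone marrow (limma adjusted p = 9.76e-05). Counted over 3 libraries each, blood was 144-fold above tumor with a counting interval of 39.4 to 1200, and bone marrow 84.0-fold above with an interval of 22.9 to 701. Both tumor reads came from replicate 1, and without it the fitted changes against blood and bone marrow moved from -7.43 and -6.61 to -8.53 and -7.72. Quantile normalization gave -8.46 and -7.41.

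Alox15 is also known as a gene of eosinophils and of some macrophages, so their markers were set beside it. The 8 eosinophil genes summed to 84.8 to 116 RPM in bone marrow, 107 to 138 in blood and, highest, 244 to 298 in tumor, and were mixed in direction. In blood 1 was higher than in bone marrow and 5 were lower, with Siglecf at 534 to 875 reads and Ccr3 at 34 to 60, while the granule genes Epx, Prg2 and Ear1 had 0 reads. In tumor 2 were higher than in bone marrow and 4 lower, the sum being carried by Siglecf and Il5ra, with Epx and Ear1 at 0 reads and Prg2 at 0 to 2. The macrophage and monocyte list stood at 384 to 395 RPM in bone marrow, 1258 to 1419 in blood, with 500 to 635 in tumor. Of its 9 genes, 2 were higher and 1 lower in tumor than in bone marrow, and 6 were not called. In blood 3 were higher and 2 lower than in bone marrow, and 4 were not called. The blood sum was carried by Csf1r, at 4796 to 6885 of 6502 to 9331 reads, while Ms4a7 had 0 reads there. The part of eosinophils, macrophages and monocytes in the Alox15 values was not tested.

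**Figure D3:**
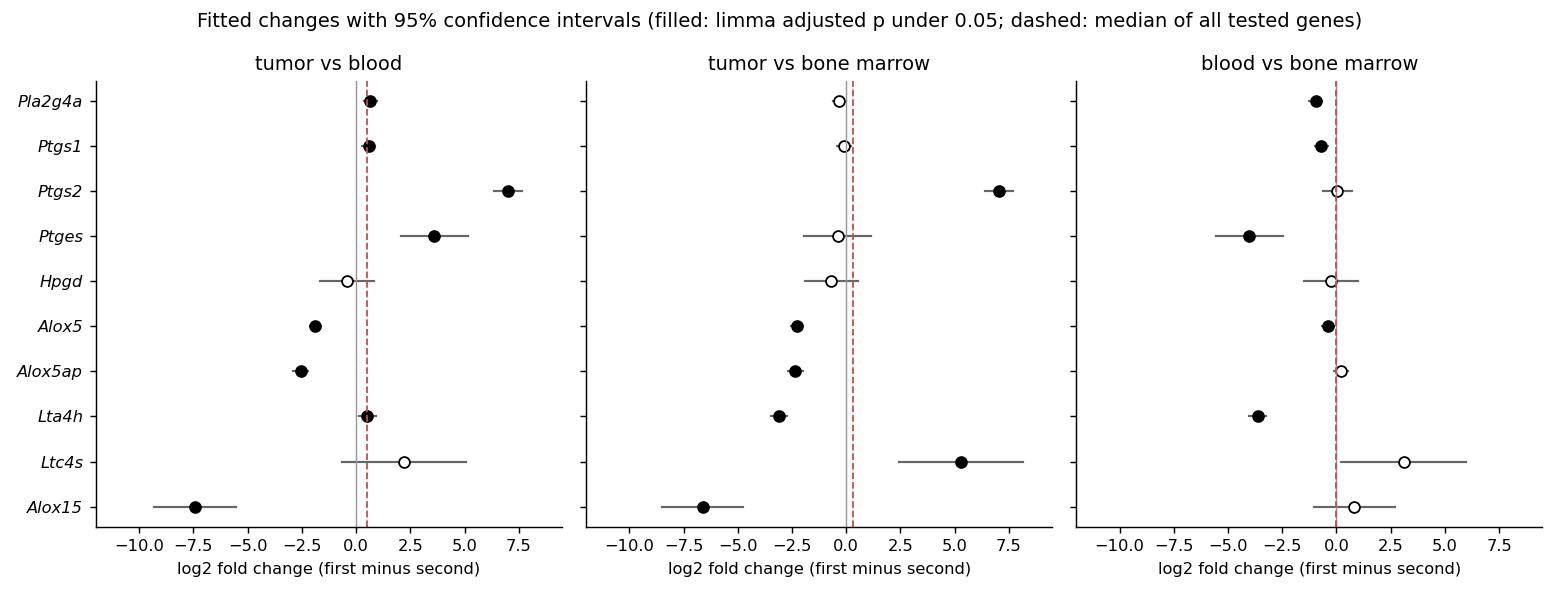
Fitted log2 fold changes (horizontal axis, first compartment minus second) of the 10 genes with 95% confidence intervals, filled where the limma adjusted p was below 0.05, with the median of all 17714 genes dashed. Ptgs2 stands alone near 7 in both tumor comparisons, the tumor to blood changes of Pla2g4a, Ptgs1 and Lta4h lie close to the dashed median at 0.50, and Ptges and Lta4h show the 2 largest falls from bone marrow to blood.

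To set genes beside each other, reads were divided by exon length, giving RPKM per exon length (exonic RPKM). In bone marrow the order began with Alox5ap at 677 ± 76.2 (SD, n = 3), Alox5 at 290 ± 22.2 and Lta4h at 192 ± 13.1, followed by Ptgs1 at 28.9 ± 3.25 and Pla2g4a at 8.81 ± 0.346, and these 5 did not overlap. Ptgs2 at 7.02 ± 1.70 overlapped Ptges at 4.40 ± 0.930, Ptges overlapped Alox15 at 3.16 ± 0.846, and Alox15 overlapped Hpgd at 2.35 ± 0.112. Bone marrow neutrophils thus held the leukotriene B4 genes far above every prostaglandin gene of the set.

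In blood, Alox5ap at 787 ± 48.7 and Alox5 at 223 ± 25.7 exonic RPKM remained on top. Ptgs1 at 17.9 ± 1.60 and Lta4h at 15.6 ± 1.96 overlapped behind them, as did Ptgs2 at 7.28 ± 2.06 with Alox15 at 5.60 ± 1.59 and Alox15 with Pla2g4a at 4.54 ± 0.326. Hpgd at 2.04 ± 0.670, Ltc4s at 0.783 ± 1.07 and Ptges at 0.378 ± 0.321 closed the order, each overlapping the next. From bone marrow to blood, Lta4h left the top group, going from place 3 to place 4, and Ptges went from place 7 to the last. Pla2g4a went from place 5 to place 7 and Alox15 from place 8 to place 6.

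In tumor, Ptgs2 led at 946 ± 343 exonic RPKM, with 617 in its lowest library, above the highest library of Alox5ap at 168. Alox5ap at 135 ± 28.9 and Alox5 at 60.1 ± 3.32 followed. Ptgs1 at 26.7 ± 3.31 and Lta4h at 22.7 ± 5.10 overlapped, and Pla2g4a stood at 7.08 ± 0.225. Ptges at 3.46 ± 1.35, Hpgd at 1.75 ± 1.33 and Ltc4s at 1.47 ± 0.762 overlapped in turn, and Alox15 was last at 0.0438. The inducible cyclooxygenase gene thus moved from the sixth place in bone marrow and the fifth in blood to the first in tumor.

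**Figure D4:**
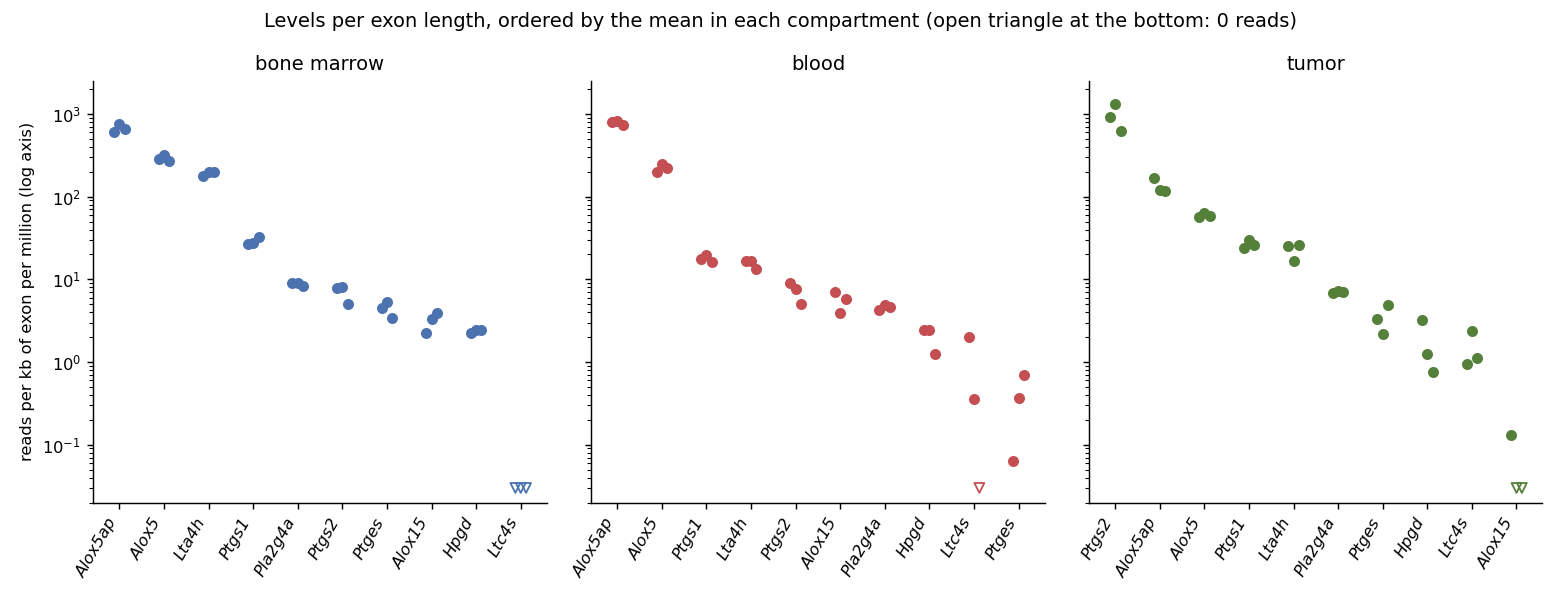
Exonic RPKM (vertical log axis) of the 10 genes in each of 3 libraries, ordered from left to right by the compartment's mean, with open triangles at the bottom for 0 reads. Alox5ap and Alox5 lead in bone marrow and blood, and Ptgs2, at 617 to 1302, leads in tumor.

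Within libraries, Alox5 exceeded Alox15 by 115 to 209 reads per read in bone marrow, 46.0 to 105 in blood, against 586 to 3963 in tumor, with 0.5 reads added to both, so the tumor range rests on 0 to 2 Alox15 reads. Both genes were lower in tumor, and Alox15 was the more reduced in this ratio. Lta4h exceeded Ltc4s by 47.9 to 763 in blood and 41.9 to 147 in tumor, ranges that overlapped. In bone marrow Ltc4s had 0 reads beside 6947 to 7994 of Lta4h, so no ratio is given there.

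**Figure D5:**
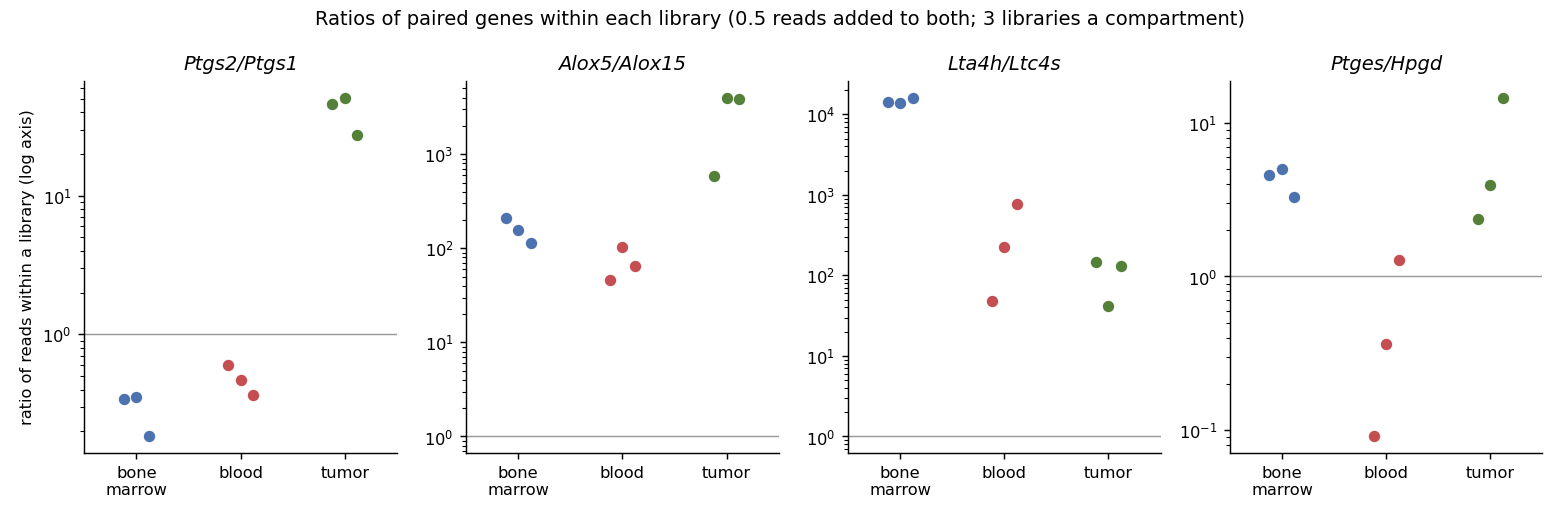
Ratio of the reads of paired genes within each library (log axis, 0.5 reads added to both) by compartment, with 3 libraries each and a line at 1. The Ptgs2 to Ptgs1 ratio is below 1 in all bone marrow and blood libraries and between 27.6 and 50.7 in tumor, and the Ptges to Hpgd ratio is lowest in blood. Ltc4s had no reads in bone marrow, so its points there depend on the 0.5 reads added.

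Other genes of the pathway were read from 8 lists. Their changes are given for the deposited scaling only. Among the 10 genes, other scalings moved Ptgs1 in tumor against blood to between -0.18 and 1.02. Small list changes were not repeated with other scalings and carry the same limit. Among these are Abcc4 and Ltb4r1 against blood and Cyp4f18 against bone marrow. Upstream of the branches, 4 of 12 tested phospholipase A2 genes were higher in tumor than in blood and 2 lower. Against bone marrow 5 were higher and 0 lower, and the median log2 changes were 1.53 and 2.29. For this and the lists below, the shares over all tested genes were 33.8% higher and 21.1% lower against blood. They were 26.9% and 19.5% against bone marrow, with medians of 0.50 and 0.29. The phospholipase medians rest in part on genes with few reads, with Pla2g5 and Pla2g2f at no more than 5 and 11 per library. Pla2g1b, Pla2g4b, Pla2g5 and Pla2g2f reached 5 reads only in tumor libraries, so they could hardly come out lower there. Pla2g1b, Pla2g4b and Pla2g5 were among the 4 called higher against blood. The counts and medians thus follow in part from the read filter. Genes of the lists below with reads almost only in tumor carry the same limit. Pla2g7, a secreted enzyme that breaks down platelet activating factor, had the most reads of them, 9672 to 16205 in blood against 2817 to 3273 in bone marrow and 2658 to 4093 in tumor. It was lower in tumor than in blood by -2.57 on the log2 scale (limma adjusted p = 3.56e-07) and was not called against bone marrow (-0.10, limma adjusted p = 0.589). Pla2g6, a calcium-independent phospholipase, was higher in tumor than in blood (3.54, limma adjusted p = 0.000162). Pla2g10, Pla2g1b and Pla2g4b, also called, had at most 10 reads in any library.

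Of 12 genes that handle arachidonate in membranes, 6 were higher and 4 lower in tumor than in blood, and 3 were higher and 6 lower against bone marrow. Anxa1, the annexin that restrains phospholipase A2, was the most abundant, with 51677 to 56670 reads in bone marrow, 12525 to 24354 in blood, against 6627 to 8582 in tumor. It was lower in tumor by -1.89 against blood and -3.07 against bone marrow on the log2 scale (limma adjusted p = 2.99e-06 and 1.47e-07). Acsl3, which activates fatty acids, was higher in tumor by 2.86 and 2.66 (limma adjusted p = 0.000255 and 0.000512), as were Dagla and Faah, at 12 to 37 and 51 to 94 reads per tumor library.

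Among 8 tested terminal prostanoid synthases, 5 were higher in tumor than in blood and 1 lower, and 5 were higher and 2 lower against bone marrow, with medians of 2.44 and 0.73. The gene that was lower in both was Tbxas1, thromboxane A synthase, at 326 to 458 reads in bone marrow, 412 to 889 in blood, with 115 to 181 in tumor (-2.50 and -1.58, limma adjusted p = 6.02e-06 and 0.000179). Hpgds, a prostaglandin D synthase, had 0 to 3 reads in bone marrow, 0 to 5 in blood, against 42 to 101 in tumor. Ptgis, prostacyclin synthase, had 0 reads in bone marrow, 0 to 7 in blood, with 37 to 58 in tumor. Ptges3, which had the most reads of the list, was higher in tumor by 0.84 and 0.66 (limma adjusted p = 0.00212 and 0.0103), and Cbr1 by 2.6 and 2.61 (limma adjusted p = 0.00275 and 0.00333).

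Of 6 genes of prostanoid transport and breakdown, 5 were higher in tumor than in blood and 3 higher than in bone marrow, with 0 lower in either. Slco2a1, which carries prostaglandins into cells for breakdown, had 0 to 1 reads in bone marrow, 0 to 2 in blood, against 82 to 330 in tumor. Its tumor reads of 82, 197 and 330 did not follow the order of Ptgs2. Ptgr1, a prostaglandin reductase, followed the pattern of Ptges, with 160 to 231 reads in bone marrow, 0 to 12 in blood, with 96 to 263 in tumor. Abcc4, an exporter with the most reads of the list, was higher than blood by 0.55 (limma adjusted p = 0.0265) and was not called against bone marrow (-0.41, limma adjusted p = 0.0905).

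Of 10 prostanoid receptor genes, 1 was higher and 2 lower in tumor than in blood, and 2 were higher and 4 lower than in bone marrow. Ptger2, the receptor EP2 for prostaglandin E2 and the most abundant, had 303 to 385 reads in bone marrow, 382 to 686 in blood, against 117 to 178 in tumor. It was lower in tumor by -2.45 and -1.41 (limma adjusted p = 7.54e-07 and 3.64e-05), opposite in direction to Ptgs2 in the same libraries. Ptgir, the prostacyclin receptor, had 428 to 616 reads in bone marrow, 28 to 35 in blood, with 22 to 64 in tumor, and was lower in tumor than in bone marrow by -3.95 (limma adjusted p = 3.52e-06). Ptgdr, a receptor for prostaglandin D2, had 24 to 32 reads in bone marrow and 0 to 1 in tumor. Pparg, a nuclear receptor for lipid ligands, had 5 to 12 reads in bone marrow, 0 to 14 in blood, against 173 to 373 in tumor.

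Of the 5 other lipoxygenase genes only Alox12, the platelet 12-lipoxygenase, reached 5 reads. It had 2, 5 and 3 reads in bone marrow, 869, 1426 and 807 in blood and 1, 21 and 0 in tumor, and was lower in tumor than in blood by -9.61 (limma adjusted p = 7.51e-05). Platelet markers moved with it, with 10 of 10 higher in blood than in bone marrow and a summed level of 811 to 1061 RPM in blood, 77.1 to 111 in bone marrow and 37.1 to 57.7 in tumor. Of the genes that platelets also use, Ptgs1 was lowest in blood, and Tbxas1 was higher in blood than in bone marrow by 0.93 (limma adjusted p = 0.00824). The part of platelets in the blood values was not tested.

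Of 15 tested genes of leukotriene conversion and breakdown, 5 were higher and 7 lower in tumor than in blood, and 4 were higher and 9 lower than in bone marrow, with medians of -1.13 and -0.85. Cyp4f18, the neutrophil enzyme that inactivates leukotriene B4, had the most reads, 5097 to 5279 in bone marrow, 5284 to 9290 in blood, with 4233 to 5050 in tumor, and was lower in tumor by -1.26 and -0.39 (limma adjusted p = 2.29e-05 and 0.0355). Mgst3, a microsomal glutathione transferase, was higher in tumor by 3.86 and 4.30 (limma adjusted p = 0.000436 and 0.000256). Ephx2, soluble epoxide hydrolase, had 0 reads in all 6 bone marrow and blood libraries and 89, 97 and 219 in tumor. Dpep1 and Cyp4f14 were also called higher in tumor, with 27 to 69 and 4 to 11 reads there.

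Of 7 tested receptors for leukotrienes and resolving mediators, 2 were higher and 3 lower in tumor than in blood, and 2 were higher and 2 lower than in bone marrow. Ltb4r1, the high-affinity leukotriene B4 receptor, had 4676 to 4961 reads in bone marrow, 794 to 1631 in blood, against 1135 to 1321 in tumor, the same order as Lta4h for bone marrow against the others. It was lower in tumor by -0.49 against blood and -2.16 against bone marrow (limma adjusted p = 0.0118 and 8.41e-07). Cysltr1, the main cysteinyl leukotriene receptor, was higher in tumor by 2.16 and 2.93 (limma adjusted p = 0.00115 and 0.000189), with 104 to 220 reads per library. Fpr2, which binds lipoxin A4 and formyl peptides, was lower by -1.13 and -2.22 (limma adjusted p = 0.00151 and 2.00e-05). Lgr6 had 0 reads in bone marrow and blood and 41, 71 and 125 in tumor, and Gpr18 had 37 to 67 reads in blood and 1 to 8 in tumor.

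Several of the genes seen almost only in tumor libraries, such as Ephx2, Lgr6, Slco2a1, Ptgis and Pla2g1b, had at most 7 reads in any bone marrow or blood library, and epithelial, fibroblast and acinar markers were likewise highest in tumor. Of 6 endothelial markers, 6 were higher in tumor than in bone marrow and 4 higher than in blood, with 1 lower. They summed to 0.929 to 2.64 RPM in bone marrow, 56.2 to 90.0 in blood, where Vwf made up 305 to 602 of 313 to 615 reads, and 31.7 to 40.6 in tumor. Lymphocyte markers had 7 of 9 genes lower in tumor than in blood, and red cell markers 6 of 6 lower. The part of other cells in the values of these genes was not tested.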

How the data were processed

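The authors sorted neutrophils from OT mice, made cDNA with the SMARTSeq v2 protocol and sequenced paired reads. Per the submitters' processing notes, the tools were STAR 2.5.2b, featureCounts 1.5.0 and edgeR 3.8.6, on GRCm38. The study's methods name the GENCODE M7 annotation. The values deposited by the authors are log2 FPKM for 46517 genes in 9 libraries. From the values, whole reads were recovered for all 46517 genes to within 0.02 reads, library sizes were scaled, and the length equalled the genomic span for 85.1% of identifiers found in GENCODE M21, which gave positions and exon lengths. 0 value columns were left out.

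Groups came from the sample titles. Genes with at least 5 recovered reads in 1 or more libraries (17714) were tested on the log2 values with limma 3.58.1 in R 4.3.3 (1 coefficient per compartment, eBayes with a trend on mean log2 RPM), with Benjamini-Hochberg adjusted p at 0.05. The pools come from independent experiments, and p-values measure the spread between these pools. Molecular identifiers are not described in the sources used here, and counting intervals and floors cover counting error only. The fit was tested on simulated data. Marker sums use plain library totals.

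The members and the lists were chosen with earlier results of these data known. Named besides the 10 genes were, of each pathway list, at most 4 genes called in a tumor comparison, by the larger absolute change, and the list's most abundant gene, plus defining markers. Alternatives were other filters, pseudocounts, scalings, models and call rules, 2 compartments only, the replicate block and each library left out. Replicate numbers were not taken as pairs, and the labels do not say whether same-numbered pools shared mice. Promoter sequences are from RefSeq.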

Additional observations from a re-analysis of the deposited data

How the results depend on the processing

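In 24 alternatives, or 23 for genes that the log2 FPKM filter removed, the tumor changes of Ptgs2, Alox5, Alox5ap and Alox15 kept their direction and call, as did Ptges against blood and Lta4h against bone marrow. Limiting tests to genes with log2 FPKM over 0 in 3 libraries left 2206 and 1763 genes higher in tumor than in blood and bone marrow, 1890 lower in blood than in bone marrow, and 3, 1 and 3 of the 10 genes in the same places, since fewer genes were tested. With library medians set equal, 5957 genes were lower in tumor than in blood, 2 of the 10 genes were higher and 1 was higher in blood than in bone marrow, and against blood Ptgs1 (-0.18), Lta4h (-0.23) and Pla2g4a (-0.11) reversed, as did Hpgd in blood against bone marrow (0.00860). Plain totals gave 2259 genes lower in tumor than in bone marrow and reversed Hpgd against blood (0.0221) and Ptgs1 (0.34), Ptges (0.0505) and Pla2g4a (0.14) against bone marrow. The log2(FPKM + 1) scale and quantile normalization each left 1 of the 10 genes higher than in bone marrow, and the latter reversed Ptgs1 in tumor against bone marrow (0.20), and Alox5ap (-0.20) and Hpgd (0.0551) between blood and bone marrow. By its construction log2(FPKM + 1) shrinks low values, and Ptges against blood was 0.36 on it, and Alox15 -1.42 and -0.96 against blood and bone marrow. A minimum change of 1 on the log2 scale left 2 higher in tumor than in blood and 2 lower in blood than in bone marrow. Without single replicates, 4 to 6 were higher in tumor than in blood and 0 to 1 higher in blood than in bone marrow (1 without blood replicate 3). In such fits Hpgd ranged from -0.99 to 0.0505 in tumor against blood and from -0.42 to 0.0464 between blood and bone marrow, where Ptgs2 ranged from -0.18 to 0.29, and each reversed in at least 1 fit. The cause was not tested.

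The replicate block gave 5919 higher and 3741 lower genes in tumor against blood, 4722 and 3463 against bone marrow, and 2407 and 3219 in blood against bone marrow, and it changed no call among the 10 genes. Same-numbered libraries correlated at -0.100 to 0.0236 in their deviations, so the numbers were not taken as pairs. Such correlations cannot exclude that same-numbered pools came from the same mice. Limma-voom on the recovered reads called 5871 higher and 3888 lower against blood, 5192 and 3722 against bone marrow, and 2449 and 2912. Depth limits Ltc4s, Hpgd, Alox15 in tumor and Ptges in blood, with at most 34 reads per library.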
